A study of Mus musculus with 8 samples.

Results

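Toll-like receptors and the proteins that work with them were followed through bone marrow B-cell development. The genes were the 10 rows of the mRNA table whose symbol is Tlr1, Tlr2, Tlr4, Tlr6, Tlr7, Tlr9, Cd180, Ly86, Unc93b1 or Myd88, out of 22298 rows in all, and each symbol stood on 1 row. B220+ cells were sorted by flow cytometry from the bone marrow of wild type C57BL/6 female mice of 8 to 10 weeks, none of them treated. Pro-B cells were IgM- CD43+, pre-B cells IgM- CD43-, immature B cells IgM+ CD43-, and mature B cells B220hi IgM+ CD43-. From each stage came 1 library of rRNA-depleted RNA and 1 of small RNA, 8 in all, and the cells of 3 mice were pooled in each, so differences between animals cannot be seen. The 4 rRNA-depleted libraries are used here. With 1 library per stage no difference has a replicate check, and no p-value is given.

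Toll-like receptors recognise conserved parts of microbes and are read by B cells alongside the B-cell receptor. Tlr1, Tlr2, Tlr4 and Tlr6 sit at the cell surface, where Tlr2 pairs with Tlr1 or Tlr6 to bind bacterial lipopeptides and Tlr4 binds lipopolysaccharide. Tlr7 and Tlr9 recognise RNA and DNA in endosomes, and Unc93b1 is the chaperone that carries them there. Cd180 (RP105) is a relative of the receptors without a signalling TIR domain that is held at the B-cell surface by Ly86 (MD-1), and Myd88 is the adaptor through which most Toll-like receptors signal.

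From pro-B to mature B cells, Tlr1, Tlr9, Cd180 and Ly86 rose, Myd88 fell (though not past 2-fold under TMM or DESeq2 scaling), and Unc93b1 was the highest of the 10 genes in every library. Tlr1 went from 4.61 to 72.2 CPM (the deposited estimated count per 1000000 mRNA counts of the library), Tlr9 from 134 to 294, Cd180 from 94.1 to 353 and Ly86 from 36.9 to 95.4, while Myd88 went from 62.1 to 29.9. A gene is said to have risen or fallen where the ratio of 2 libraries was 2-fold or more and its exact 95% interval left out 1, among genes with at least 10 counts over both libraries. Ratios were taken on counts rounded to whole numbers, so a fold can differ from that of the CPM printed. The intervals cover counting error only, since reads carried no molecular identifiers, and not the spread between animals or sorts. In sorted bulk cells, fewer cells that express a gene and less RNA of it per cell cannot be told apart.

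The bases just upstream of an annotated start are shown for each of the 5 genes that differed between pro-B and mature B cells. They were taken from RefSeq (GRCm38.p6), which held 10 entries for 7 of the 10 members, and are the last 120 bases before the start, 5′ to 3′ on the gene's strand. The entries lie at chr9:106222478-106222597 on the plus strand (Tlr9), chr5:64933559-64933678 on the minus strand (Tlr1), chr13:102693427-102693546 on the plus strand (Cd180), chr13:37345225-37345344 on the plus strand (Ly86) and chr9:119340019-119340138 on the minus strand (Myd88). Capitals mark matches to the motifs searched. Tlr1 and Cd180 each had a further entry that is not shown, and the output of these promoters was not measured.
Tlr9: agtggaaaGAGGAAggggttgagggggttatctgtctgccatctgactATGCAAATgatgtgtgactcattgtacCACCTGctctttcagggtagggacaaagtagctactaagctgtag
Tlr1: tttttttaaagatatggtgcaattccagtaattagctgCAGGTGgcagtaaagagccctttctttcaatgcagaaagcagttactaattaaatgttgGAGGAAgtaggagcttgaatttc
Cd180: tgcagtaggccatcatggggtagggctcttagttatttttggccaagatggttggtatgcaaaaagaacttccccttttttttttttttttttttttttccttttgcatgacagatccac
Ly86: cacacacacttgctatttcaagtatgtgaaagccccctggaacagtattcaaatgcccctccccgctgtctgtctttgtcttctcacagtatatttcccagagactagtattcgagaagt
Myd88: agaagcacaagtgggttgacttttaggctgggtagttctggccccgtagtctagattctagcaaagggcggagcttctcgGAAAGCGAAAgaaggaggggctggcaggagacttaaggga

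Of 5 motifs searched on both strands over the 250 bases upstream, the Tlr9 entry held 3. These were GAGGAA, the core bound by PU.1, from base -112 to -107 before the start, the octamer ATGCAAAT from -72 to -65, and CAGGTG, an E box bound by E proteins, on the reverse strand from -45 to -40. The octamer was in 1.60% of all 32851 promoters of the same length, GAGGAA in 23.2% and CAGGTG in 17.2%. The Tlr1 entry shown held CAGGTG from -82 to -77 and GAGGAA from -23 to -18, and the further Tlr1 entry held none of the motifs. The Tlr2 entry held CAGGTG on the reverse strand from -178 to -173. The interferon response core, GAAA repeated after any 2 bases, in either direction, was in 2.98% of promoters, in Myd88 from -40 to -31 and at 2 overlapping places in 1 Tlr6 entry, from -116 to -107 and from -110 to -101. The EBF1 motif CCCNNGGG was in 11.8% of promoters and in none of the members' entries. The Cd180 and Ly86 entries held none of these letters, and a match is a description of the sequence, not evidence of binding.

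The libraries differed in how much mRNA they held, and this sets how finely each stage can be read. The mRNA counts came to 867920 in pro-B, 240231 in pre-B, 223495 in immature and 849350 in mature B cells, which was 23.7%, 6.47%, 6.48% and 23.5% of all mRNA and lncRNA counts. A gene with no read is given a limit of 3 counts, which is 3.46, 12.5, 13.4 and 3.53 CPM in the 4 libraries. Values are in CPM of the mRNA total unless FPKM (the authors' value per length) is named, and FPKM followed the total of mRNA and lncRNA counts instead. Over all genes the median log2 ratio of pre-B against pro-B was -0.25 in CPM and -2.09 in FPKM, and of mature against immature it was 0.07 and 1.89. In mature against pro-B it was -0.15 and -0.14. The 7 B-cell markers were all above 0 in every library and summed to 4387, 4381, 6791 and 6502 CPM, but differed among themselves. Cd79a, a signalling chain of the B-cell receptor, was at 287, 249, 680 and 590 CPM, and Cd79b at 780, 2073, 2707 and 925. Ptprc was at 290, 39.1, 69.8 and 676 CPM, and Ms4a1 at 104, 41.6, 1016 and 792. Fcer2a of mature B cells had counts in the mature library and 0 in the others.

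**Figure D1:**
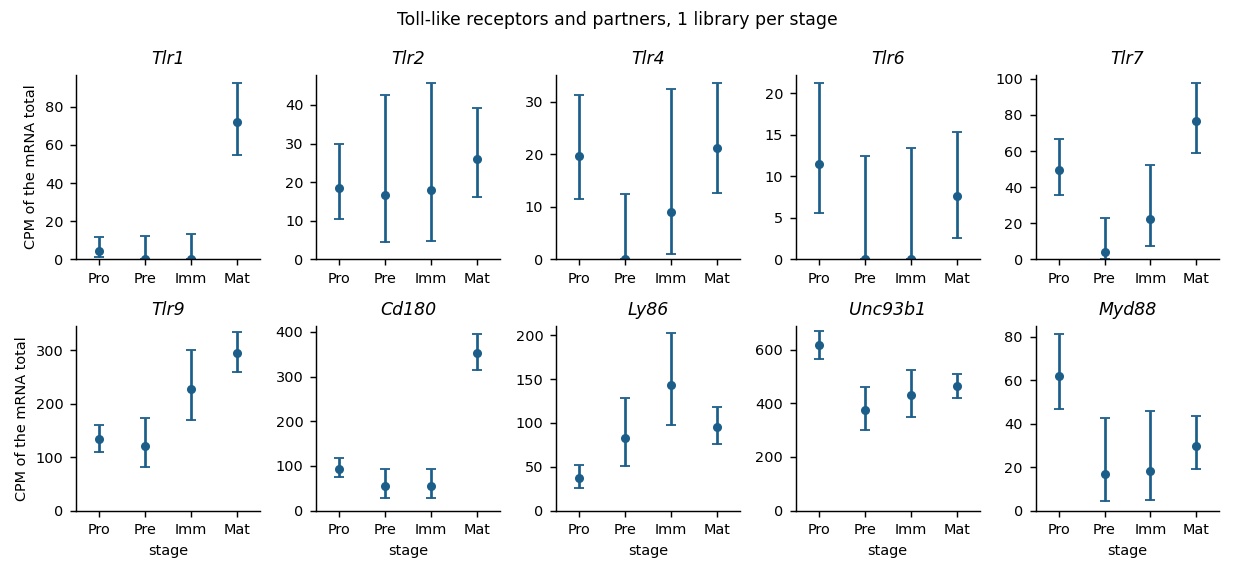
CPM of the mRNA total (vertical axes, each from 0 to its own maximum) of the 10 genes in the pro-B, pre-B, immature (Imm) and mature (Mat) library; points are the 1 library of each stage and bars its exact 95% Poisson interval, or, at 0 counts, the limit of 3 counts. Tlr1 and Cd180 stand highest in the mature library. Ly86 has its highest value, 143, in the immature library, with a bar that overlaps those of pre-B and mature. The bars are widest in the immature library except for Tlr1 and Cd180 (mature) and Tlr6 (pro-B).

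Among the surface receptors, Tlr1 (ENSMUSG00000044827) was found almost wholly in the mature library. Its counts were 4 in pro-B, 0 in pre-B, 0 in immature and 61.3 in mature B cells, or 4.61, 0, 0 and 72.2 CPM, with an interval of 54.9 to 92.3 in the mature library. That interval lay above the one in pro-B (1.26 to 11.8) and above the limit of 3 counts in the libraries at 0. It was 15.6-fold above pro-B (95% interval 5.79 to 59.0), with 4 counts on the lower side, and at least 5.35-fold above immature, with the mature value as measured and immature at the limit of 3 counts.

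Tlr6 (ENSMUSG00000051498), the other partner of Tlr2 and a close relative of Tlr1 on the same chromosome, had 10, 0, 0 and 6.43 counts, or 11.5, 0, 0 and 7.57 CPM. Mature against pro-B the difference was 1.63-fold lower with an interval of the ratio from 0.183 to 1.86, so no change was detectable at this depth. The 2 genes share much of their sequence, and how reads that match both were assigned is not given in the sources used here. Both the mature count of Tlr1 and that of Tlr6 were not whole.

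Tlr2 (ENSMUSG00000027995) had 16, 4, 4 and 22 counts, or 18.4, 16.7, 17.9 and 25.9 CPM. Its intervals overlapped in all 4 libraries, and mature against pro-B was 1.41-fold with an interval from 0.705 to 2.86. Tlr4 (ENSMUSG00000039005) had 17, 0, 2 and 18 counts, or 19.6, 0, 8.95 and 21.2 CPM. Its pro-B and mature values were 1.08-fold apart in CPM, higher in mature with an interval from 0.526 to 2.23, and lower in mature by FPKM at a log2 ratio of -0.30. The co-receptors that pass lipopolysaccharide to Tlr4 were scarce as well, with Cd14 at 0 in all 4 libraries and Ly96 (MD-2) at 6, 2, 0 and 0 counts.

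The endosomal receptor Tlr9 (ENSMUSG00000045322) was the most highly expressed of the 6 Toll-like receptors in every library by FPKM. It had 116, 29, 51 and 250 counts, or 134, 121, 228 and 294 CPM, with intervals of 110 to 160, 80.9 to 173, 170 to 300 and 259 to 333. The interval of the mature library lay above those of pro-B and pre-B and overlapped that of immature. Mature against pro-B, Tlr9 rose 2.202-fold (1.76 to 2.77, log2 ratio 1.14 in CPM and 1.15 in FPKM). The 1.89-fold step from pre-B to immature left out 1 (1.18 to 3.09) but stayed under 2-fold.

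Tlr7 (ENSMUSG00000044583), which senses single-stranded RNA, had 43, 1, 5 and 65 counts. These are 49.5 CPM in pro-B (35.9 to 66.7), 4.16 in pre-B (0.105 to 23.2), 22.4 in immature (7.26 to 52.2) and 76.5 in the mature library (59.1 to 97.5). The pre-B value was the lowest, on 1 count, and the pro-B and mature values were the highest. Tlr7 fell from pro-B to pre-B by a ratio with an interval from 0.00208 to 0.494 and rose 3.42-fold from immature to mature (1.39 to 10.9). Over the whole range from pro-B to mature it was 1.55-fold higher (1.04 to 2.33), under the 2-fold threshold. Tlr7 and Tlr9 differed at the step from pro-B to pre-B, 11.9-fold lower for Tlr7 and 1.11-fold lower for Tlr9, and the intervals of the 2 ratios (0.00208 to 0.494 and 0.580 to 1.37) did not overlap. That rests on 1 pre-B count of Tlr7, whose fall no longer passed with 2 counts taken as 1.

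Unc93b1 (ENSMUSG00000036908), the chaperone of both, had 535, 90, 96 and 393 counts. The level was 616 CPM in pro-B (565 to 671), 375 in pre-B (301 to 461), 430 in immature (348 to 525) and 463 in the mature library (418 to 511). The pro-B interval lay above the other 3, which overlapped one another. The difference from pro-B was 1.65-fold in pre-B (interval of the ratio 0.481 to 0.761) and 1.33-fold in mature B cells (0.657 to 0.857), neither reaching 2-fold. Unc93b1 made up 58.9% of the summed CPM of the 10 genes in pro-B, 55.8% in pre-B, 46.5% in immature and 32.2% in mature B cells, while the sum itself was 1047, 671, 923 and 1439 CPM.

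Cd180 (ENSMUSG00000021624), the surface receptor without a TIR domain, had 81.7, 13.3, 12.3 and 300.0 counts, or 94.1, 55.3, 55.1 and 353 CPM by stage. The mature interval, 314 to 396, lay above all others, and those of pro-B (75.1 to 117), pre-B (28.8 to 92.5) and immature (27.7 to 93.8) overlapped. Cd180 rose 6.58-fold from immature to mature (3.71 to 12.9) and 3.74-fold from pro-B to mature (2.92 to 4.83). The size depended on the unit: relative to the median of all genes, the log2 ratio of mature against immature was 2.64 in CPM and 1.87 in FPKM. The deposited values held 6.48 counts per unit of FPKM for Cd180 in the immature library and 11.7 in the mature library, where Tlr9 had 18.3 and 18.4, so the counts and the FPKM of Cd180 did not keep 1 ratio.

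Ly86 (ENSMUSG00000021423), the partner that Cd180 needs at the surface, had 32, 20, 32 and 81 counts. The level was 36.9 CPM in pro-B (25.2 to 52.1), 83.3 in pre-B (50.9 to 129), 143 in immature (97.9 to 202) and 95.4 in the mature library (75.7 to 119). The immature value was the highest and the pro-B value the lowest, and the pro-B interval lay below those of immature and mature. Ly86 rose 2.26-fold from pro-B to pre-B in CPM (1.22 to 4.07), but its FPKM went from 5.19 to 3.07, a log2 ratio of -0.76, so the direction of that step turned with the scale. Against the median of all genes it was higher in pre-B on both scales, by 1.43 in CPM and 1.33 in FPKM. Mature against pro-B, Ly86 rose 2.59-fold (1.70 to 4.03), with 1.37 in CPM and 1.38 in FPKM on the log2 scale. Cd180 and Ly86 thus both stood higher at the end than at the start, but between immature and mature Cd180 rose while Ly86 was 1.501-fold lower in CPM, with an interval of the ratio from 0.437 to 1.04 that held 1, and higher by 1.33 (log2) in FPKM.

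Myd88 (ENSMUSG00000032508) had 53.9, 4, 4.07 and 25.4 counts, or 62.1 CPM in pro-B (46.7 to 81.2), 16.7 in pre-B (4.54 to 42.6), 18.2 in immature (4.88 to 45.8) and 29.9 in the mature library (19.1 to 43.5). The pro-B interval lay above the other 3, which overlapped. Myd88 fell 3.74-fold from pro-B to pre-B (interval of the ratio 0.0704 to 0.726) on 4 pre-B counts. Mature B cells were 2.11-fold below pro-B (0.282 to 0.773), a log2 ratio of -1.08 that became -0.93 relative to the median of all genes, and the call was lost when libraries were scaled by TMM or DESeq2 size factors. The adaptor and the receptors Tlr1 and Tlr9 thus went in opposite directions between the 2 deep libraries.

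**Figure D2:**
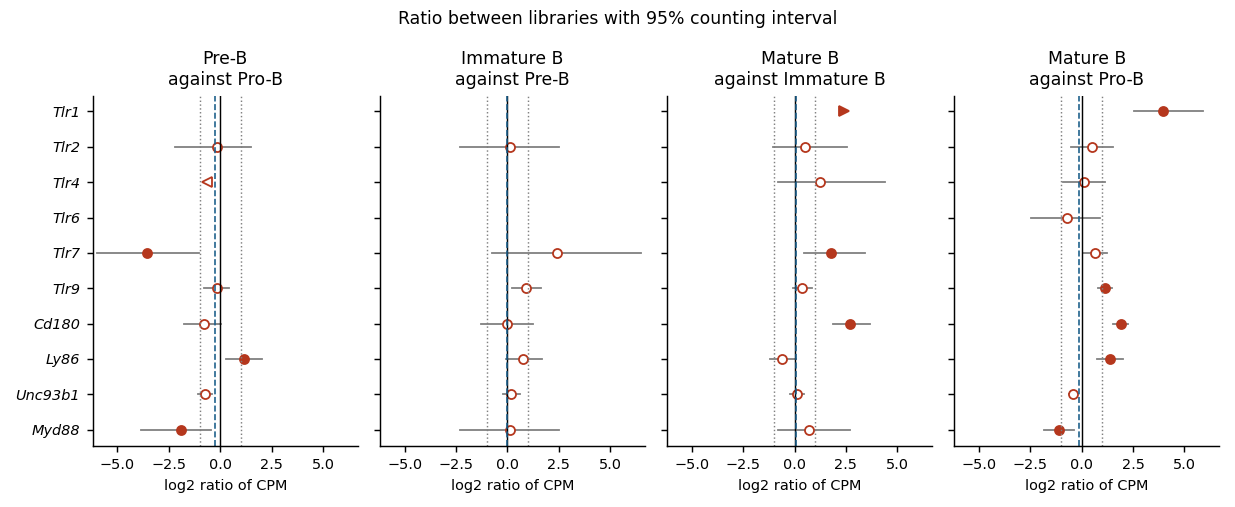
Log2 ratio of CPM (horizontal axes) of each gene in 4 comparisons of 2 libraries. Filled circles rose or fell (2-fold or more, interval without 1), open circles did not, lines are exact 95% counting intervals (drawn to the axis limit where they run on), triangles are bounds against a library at 0, and genes without a mark allow no ratio; the dotted lines mark 2-fold and the dashed line the median of all genes. In the mature against pro-B panel Tlr1, Tlr9, Cd180 and Ly86 lie to the right and Myd88 to the left.

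Read against all genes, the counts of members that passed were as follows. From pro-B to pre-B, 1 of the 9 members with enough counts rose (Ly86) and 2 fell (Tlr7 and Myd88), where 14.4% of all 9723 genes tested rose and 23.7% fell. From pre-B to immature, none of the 4 members with enough counts passed, where 12.4% rose and 12.6% fell among 7011 genes. From immature to mature, 3 of 9 rose (Tlr1, Tlr7 and Cd180) and none fell, where 19.6% rose and 17.6% fell among 8998 genes. In mature against pro-B, 4 of 10 rose and 1 fell, where 10.9% rose and 20.7% fell among 10323 genes. The median log2 ratio of the members above 0 in both libraries was -0.72 (7 members), 0.49 (4), 0.63 (8) and 0.56 (10), beside -0.25, 0.00, 0.07 and -0.15 over all genes. The 4 comparisons share libraries and are not independent of each other.

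Low counts were mostly even: of the whole counts from 1 to 10, between 82.3% and 83.7% were even numbers in the 4 libraries. Where mates of a pair were counted separately, the intervals above are too narrow. With 2 counts taken as 1, none of the 3 differences between pro-B and pre-B (Ly86, Tlr7 and Myd88) passed, and the 3 of mature against immature and the 5 of mature against pro-B all passed.

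On the FPKM scale the 2 comparisons that cross between a deep and a shallow library looked different. Pre-B against pro-B, 6 members passed as lower and none as higher. Mature against immature, all 8 members with a value in both libraries passed as higher. Relative to the median of all genes, Tlr7 and Myd88 had a like size on both scales, for Tlr7 -3.32 in CPM and -3.30 in FPKM from pro-B to pre-B and 1.70 and 1.85 from immature to mature, and for Myd88 -1.65 and -1.72 from pro-B to pre-B. Unc93b1, like Cd180, differed between the scales: mature against immature it was 0.03 in CPM and 0.61 in FPKM, and immature against pre-B it changed sign, from 0.20 to -0.44. Its counts per unit of FPKM were 10.4 in the immature library and between 7.39 and 7.73 in the others.

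**Figure D3:**
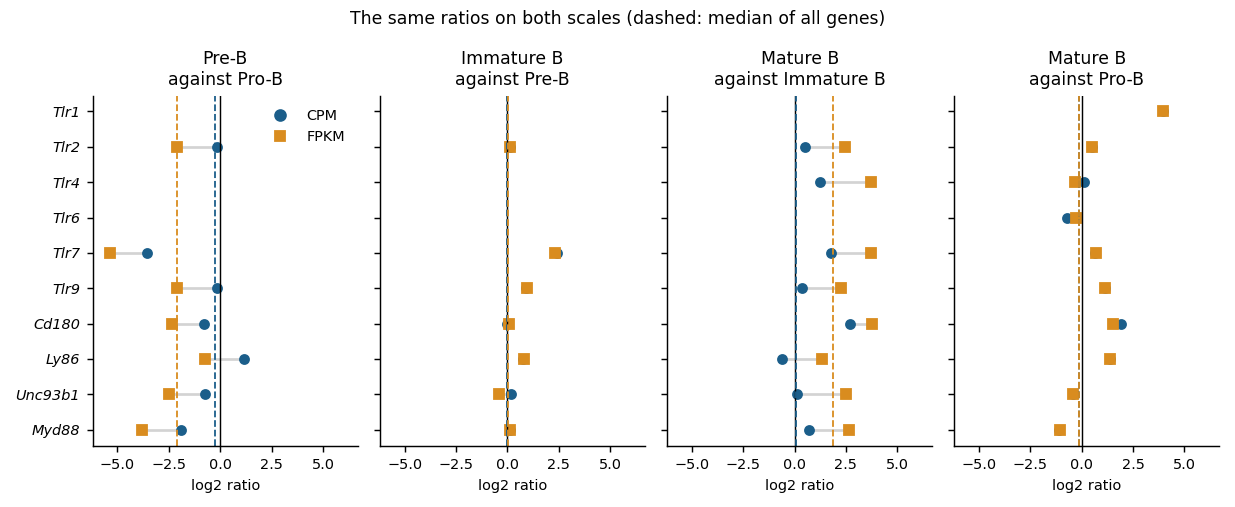
Log2 ratio between 2 libraries (horizontal axes) of each gene with a value above 0 in both, in CPM of the mRNA total (circles) and in the deposited FPKM (squares); dashed lines of the same colours are the medians of all genes. The scales part in the pre-B against pro-B and mature against immature panels, where the FPKM medians are -2.09 and 1.89. They lie closer in the other panels, apart from Unc93b1 in immature against pre-B (0.20 and -0.40) and 3 genes in mature against pro-B. These are Tlr4 (0.11 and -0.30), Tlr6 (-0.71 and -0.28) and Cd180 (1.902 and 1.502).

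Levels of different genes can be compared per length, in FPKM. Unc93b1 was first in each library with 69.2, 12.2, 9.23 and 52.2. In pro-B cells Cd180 (9.09), Tlr9 (6.14), Ly86 (5.19) and Myd88 (5.06) followed, each overlapping its neighbour in counting interval, then Tlr7 (2.09), Tlr4 (1.44), Tlr2 (0.98), Tlr6 (0.57) and Tlr1 (0.26), again with neighbours that overlapped. In mature B cells the order was Cd180 (25.8), then Tlr9 (13.6) and Ly86 (13.5), which did not differ beyond their intervals, then Tlr1 (4.04), Tlr7 (3.34), Myd88 (2.45), Tlr2 (1.38), Tlr4 (1.17) and Tlr6 (0.47), where each overlapped the next from Tlr1 on. Tlr1 thus moved from the last of the 10 places to the fifth. In pre-B and immature B cells Ly86 was second, at 3.07 and 5.37, and overlapped Cd180 (1.81) in pre-B and Unc93b1 in immature B cells.

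**Figure D4:**
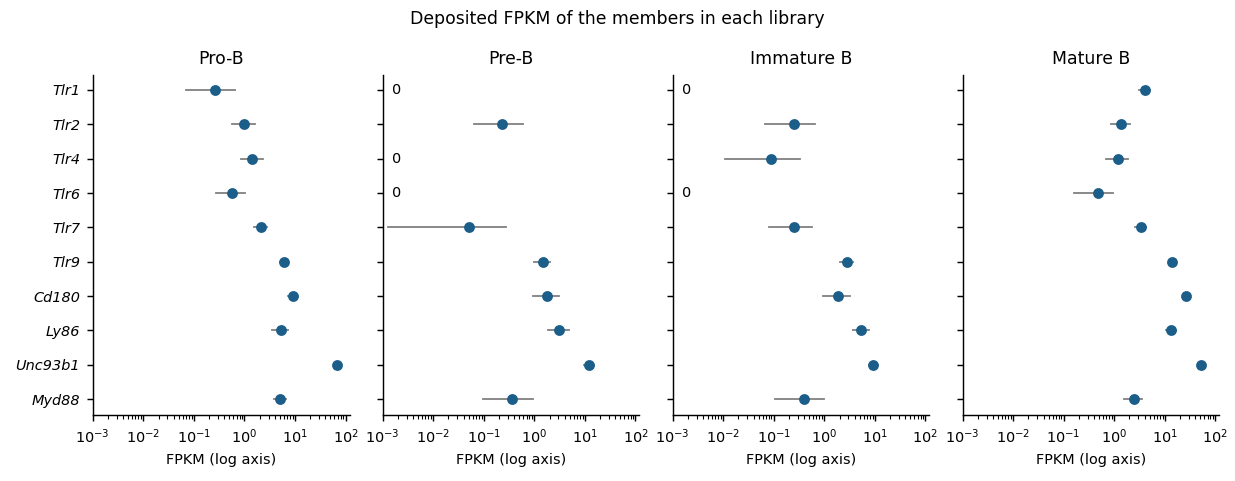
Deposited FPKM (log axis) of the 10 genes in each library; lines are the exact 95% counting interval scaled to FPKM, drawn from the axis limit where they run lower, and 0 marks genes listed at 0. Unc93b1 is farthest right in all 4 panels, and Tlr1 stands at 0.26 in pro-B and at 4.04 in mature B cells.

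Markers of other cells that use these receptors were checked in the same libraries. Of 8 markers of plasmacytoid dendritic cells, which depend on Tlr7, Tlr9, Unc93b1 and Myd88, 8 were above 0 in pro-B, 4 in pre-B, 6 in immature and 5 in mature B cells, and they summed to 1939, 470, 976 and 869 CPM. Siglech, which defines these cells, had 105, 0, 4 and 0 counts, and Klk1 had 18, 0, 2 and 0. The sum of the 8 markers was highest in the pro-B library, as were Unc93b1 and Myd88. It was lowest in pre-B, as were Tlr7, Tlr9, Unc93b1 and Myd88, each with a pre-B interval that overlapped that of immature. The part of these markers in those differences was not tested. Tlr1, Tlr9, Cd180 and Ly86 were higher in the mature than in the pro-B library. In the mature library Siglech, Klk1 and Cox6a2 were at 0. The other markers of that list were not, with Irf8 at 631 CPM, Tcf4 at 144, Ccr9 at 47.1, Bst2 at 44.7 and Cd209d at 2 counts. Irf8 and Tcf4 were also a large part of the pro-B sum, at 902 and 419 CPM. Of 8 monocyte and macrophage markers Csf1r and Cd14 were at 0 in all libraries, and the sum went from 604 in pro-B to 353 CPM in mature B cells. The others were not absent. Lyz2 was at 322, 366, 233 and 246 CPM, Itgam at 124, 70.8, 53.7 and 53.0, and Ly6c2 at 135, 83.3, 43.2 and 33.0. Cd68, Fcgr1 and Adgre1 had at most 16 counts, and Adgre1 was highest in mature B cells. Neutrophil markers, which include granule proteins made in abundance in the marrow, summed to between 981 and 1461 CPM, lowest in mature B cells. T and NK cell markers summed to 205 CPM in pro-B and 0, 0 and 5.89 in the later stages. The pro-B sum came mostly from Gzma (106 counts), Nkg7 (38), Ccl5 (17) and Klrd1 (15). The T-cell receptor chains Cd3e and Cd3g had 0 and 2 counts there. Erythroid markers summed to between 271 and 546 CPM and plasma cell markers to between 111 and 375 CPM. Of the markers of the stages themselves, pro-B markers stood at 2321 CPM in pro-B and at most 179 later, and mature B markers at 491, 582, 1324 and 5708 CPM. The sum of the pre-B markers was not highest in their own library, at 1278, 1066, 576 and 15.2 CPM. The 4 markers differed: Rag1 was highest in pro-B (918 against 372 in pre-B) and Vpreb3 in immature (456 against 295). Rag2 (316 against 109.5 in pro-B) and Il2ra (83.3 against 68.0, with intervals that overlapped) were highest in pre-B.

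The other genes of the pathway, 47 in 7 lists, gave 36 genes with enough counts from pro-B to pre-B, of which 2 rose and 14 fell, where 14.4% and 23.7% of all genes did. From pre-B to immature 8 of 30 rose and 2 fell (12.4% and 12.6% of all genes), from immature to mature 13 of 34 rose and 3 fell (19.6% and 17.6%), and in mature against pro-B 6 of 36 rose and 7 fell (10.9% and 20.7%). By FPKM, 28 passed as lower and 0 as higher from pro-B to pre-B, and 26 as higher and 0 as lower from immature to mature. The median log2 ratio of those above 0 in both libraries was -0.80, 0.10, 0.71 and 0.25. Of the 6 remaining Toll-like receptors, Tlr3, Tlr5, Tlr8, Tlr11 and Tlr13 had at most 4 counts in any library. Tlr12 had 17, 2, 2 and 0 counts and was at least 5.54-fold lower in mature than in pro-B cells, with the pro-B value as measured and mature at the limit of 3 counts.

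The largest list held 13 kinases, ubiquitin ligases and partners of these that act below Myd88. From pro-B to pre-B 1 rose and 6 fell, and from pre-B to immature 3 rose and 1 fell of 11. From immature to mature 8 rose and 1 fell, and in mature against pro-B 3 rose and 1 fell. These counts stand beside the same shares of all genes as above, of which 19.6% rose from immature to mature. Irak4, the kinase that Myd88 recruits first, was 114 CPM in pro-B and 387 in pre-B, 3.39-fold higher (2.53 to 4.55), where FPKM gave a log2 ratio of -0.19, which was 1.90 above the median of all genes. It then fell 2.61-fold from 355 to 135 CPM between immature and mature, where FPKM gave 0.52. Relative to the median of all genes, that step of Irak4 was -1.46 in CPM and -1.37 in FPKM. Irak2, a related kinase, was 28.8 CPM in pro-B and 131 in mature B cells, a rise of 4.54-fold (2.92 to 7.31). Its size depended on the unit, with a log2 ratio of 2.18 in CPM and 1.48 in FPKM. The ubiquitin ligase Traf3 rose 3.21-fold from 56.5 to 181 CPM, and Traf6, the ligase that passes the signal on to NF-kappaB, fell 2.35-fold from 318 to 135 CPM over the same span. Traf6 also fell 3.597-fold from pre-B to immature. Of the kinases below it and their partners, Tab3, Map3k7 (TAK1) and Chuk (IKK-alpha) rose from immature to mature. Tab3 was 13.9-fold higher on 1 immature count (2.40 to 561), Map3k7 4.93-fold on 4 (1.85 to 18.6) and Chuk 4.47-fold on 6 (1.99 to 12.5). Relative to the median of all genes, the log2 ratio of Map3k7 was 2.23 in CPM but 0.75 in FPKM. For Tab3 it was 3.73 and 3.83, and for Chuk 2.09 and 2.17. Tbk1, which activates interferon regulatory factors, fell 6.78-fold from pro-B to pre-B on 4 counts.

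Among transcription factors of the pathway, Rel (c-Rel), an NF-kappaB subunit prominent in lymphocytes, was 478 CPM in pro-B and 1367 in mature B cells, 2.86-fold higher (2.55 to 3.21). The step from pre-B to immature was 2.003-fold (1.47 to 2.74), just past the threshold, and did not pass with 2 counts taken as 1. The inhibitors of the pathway differed among themselves: Tnfaip3 (A20), which removes ubiquitin chains, fell 2.56-fold in CPM from pre-B to immature, where FPKM gave a log2 ratio of 0.03, and rose 2.91-fold from immature to mature (2.11 to 4.11), where FPKM gave 1.84, near the median of all genes. Nfkbia (IkappaB-alpha) fell 2.32-fold from immature to mature, where FPKM gave 0.71. Relative to the median of all genes, its log2 ratio was -1.286 in CPM and -1.185 in FPKM. Endosomal proteases trim Tlr7 and Tlr9 into their active forms. Of the 4 listed, Ctsb was 4.45-fold lower in mature than in pro-B cells (356 to 80.1 CPM) and 3.89-fold lower in pre-B. Ctss fell 4.31-fold from pro-B to pre-B and was 2.22-fold higher in mature than in pro-B cells. Lgmn went the other way in pre-B, 2.36-fold above pro-B (1.44 to 3.81). There FPKM gave a log2 ratio of -0.64, which was 1.45 above the median of all genes. Ctsl was 2.03-fold lower in mature than in pro-B cells (0.303 to 0.787). Its log2 ratio of -1.02 became -0.87 relative to the median, and FPKM gave -0.43. Pik3ap1 (BCAP), an adaptor that links Toll-like receptors to PI3-kinase, fell 2.08-fold from 1012 to 487 CPM between pro-B and mature B cells, a log2 ratio of -1.06 that became -0.91 relative to the median of all genes and did not pass 2-fold under TMM or DESeq2 scaling.

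**Figure D5:**
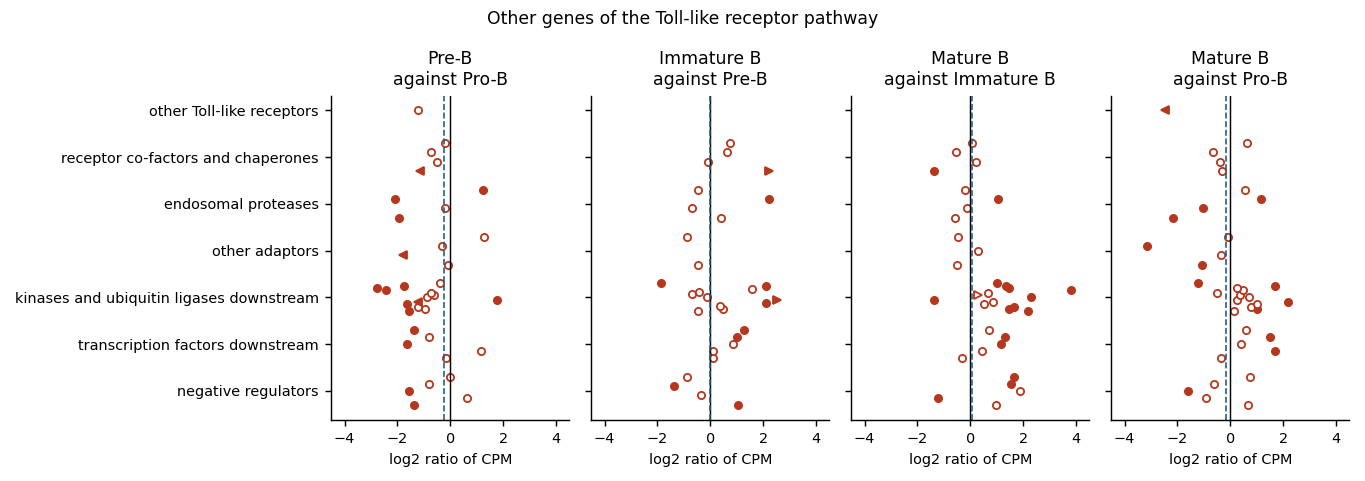
Log2 ratio of CPM (horizontal axes) of the pathway genes with enough counts, by list (rows, points spread vertically only to separate genes), in the 4 comparisons. Filled marks rose or fell and open marks did not. Triangles are bounds against a library at 0 and the dashed line is the median of all genes. The kinases, ligases and their partners lie mostly to the right in mature against immature, where 8 of 13 rose, beside 19.6% of all genes.

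The genes whose course over the 4 libraries was most like that of the 2 members with the most counts, Unc93b1 and Tlr9, were found among 4739 genes with at least 100 counts, by the distance between centred log2(CPM + 1) values. For Unc93b1 they were Vps13b (distance 0.079), Kcmf1 (0.081) and Pold1 (0.086). Vps13b, for example, had 575, 346, 398 and 403 CPM. For Tlr9 they were Gtpbp4 (0.138), Got1 (0.154) and Tnfrsf13b (TACI, a receptor for the B-cell survival factors BAFF and APRIL, 0.159), which had 76.0, 74.9, 143 and 163 CPM. The likeness rests on 4 points, 1 per stage.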

How the data were processed

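RNA of pro-B, pre-B, immature and mature B cells was sequenced in 1 rRNA-depleted library per stage, and samples were grouped by their labels. The authors used fastp 0.18.0 to clean reads, Bowtie2 2.2.8 to take out rRNA, HISAT2 2.1.0 to map what remained and StringTie 1.3.4 to quantify it. The deposited mRNA and lncRNA tables hold estimated counts, not normalized, of which 6.27% to 9.80% were not whole. FPKM values, also deposited by the authors, are scaled by length and by the library. The circRNA table, as deposited, holds counts of back-spliced reads. The submitters' processing notes name Bowtie 0.12.2 and mm9, but 931 of 945 circRNAs (98.5%) overlapped their parental gene in RefSeq GRCm38, so that build was used for circRNA positions.

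Rows of 1 symbol were summed, leaving 22272 symbols. CPM was the count over the column total, without rounding, while ratios and intervals used counts rounded to whole numbers. Intervals were exact Poisson (levels) and exact binomial given the summed counts (ratios), at 95%, and count models were not used for tests since no stage has a second library. Genes with fewer than 10 counts over both libraries were not tested, and a library at 0 entered at 3 counts. The members and lists were chosen with earlier results of these data known. The pathway genes named with their values were those that passed with at least 50 counts in the higher library, at most 3 per direction and comparison, largest fold first. Further pathway genes given by their counts, the rises of Ctss and Tnfaip3 to mature B cells, and the changes of Lgmn and Ctsl were added after values were seen. The code was tested on simulated data. Scaling alternatives came from edgeR 4.0.16 (TMM) and DESeq2 1.42.0 (size factors) in R 4.3.3, and all else from scipy 1.17.1, pandas 2.3.3 and matplotlib 3.10.9 in Python 3.11.15. Small RNA libraries were not used here.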

Additional observations from a re-analysis of the deposited data

Results flagged for a closer look

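Besides the mRNA table, the circRNA table held 2 circRNAs assigned antisense to Tlr9, and any read there lies outside the comparisons above. One, at chr9:106223865-106224412 on the minus strand (GRCm38, spliced length 548 bases), had 4 back-spliced reads in the pro-B library and 0 in the others, and lies inside the Tlr9 gene. The other, at chr9:106225096-106228025 on the minus strand (spliced length 2930 bases), had 4 reads in the mature library and 0 in the others, and runs past the end of the gene. The libraries held 1370, 1719, 1751 and 1531 back-spliced reads, so 4 reads in 1 library is little above the limit of 3 that a count of 0 allows.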

How the results depend on the processing

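No paired analysis was possible because each stage has 1 library, and no library could be left out. Of the ratios of single genes, each of 32 moved by less than its counting interval with TMM, DESeq2 size factors, totals without mitochondrial or without immunoglobulin genes and the largest row of a symbol. FPKM moved 10 and reversed 1, and the total of mRNA and lncRNA counts moved 8 and reversed 1. The value that had passed and changed sign was Ly86 in pre-B against pro-B, with a log2 ratio of -0.76 and -0.70. Of values that had not passed, Ly86 in mature against immature also changed sign by both (1.33 and 1.27), and Unc93b1 (-0.40) and Cd180 (0.07) in immature against pre-B and Tlr4 (-0.30) in mature against pro-B by FPKM. Under DESeq2 scaling Tlr2 and Tlr9 changed sign in pre-B against pro-B (0.03 each), and under TMM Cd180 in immature against pre-B (0.02). For the 10 genes, pre-B against pro-B gave 6 calls by FPKM, 5 at 1.5-fold, 8 by that total and 0 with 2 counts taken as 1, against 3. Immature against pre-B gave 1 at 1.5-fold against 0, mature against immature 8 by FPKM and 9 by that total against 3, and mature against pro-B 4 by TMM and 4 by DESeq2 size factors against 5. For the 47 pathway genes, pre-B against pro-B gave 28 by FPKM, 32 by that total, 20 on 2-fold alone and 8 with 2 counts taken as 1, against 16. Immature against pre-B gave 6 by FPKM and 5 with 2 counts taken as 1 against 10, mature against immature 26 by FPKM and 30 by that total against 16, and mature against pro-B 23 at 1.5-fold against 13. The total of mRNA and lncRNA counts and 2 counts taken as 1 were chosen after seeing the data.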

Other observations

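The lncRNA table held 4 transcripts with the symbol of a member. ENSMUST00000147008 of Tlr4 had 2.16 counts in pro-B, 0 in pre-B, 0 in immature and 1.02 in mature B cells. The other 3, 1 each of Tlr4, Tlr7 and Tlr1, were at 0 in all libraries.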
